A study of Mus musculus with 2 samples.

Results

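The cells described here are 145 monocytes from a single mouse liver, the library labelled E18.5. They make up 3.07% of the 4721 barcodes kept in that library (95% exact binomial interval 2.60 to 3.60) and are set against 14303 kept barcodes in both libraries of the series. Each was chosen from its own counts of unique molecular identifiers (UMIs, one per captured RNA molecule). A member held at least 5 UMIs of Ly6c2, F13a1, Ccr2, Ms4a6c, Ms4a4c and Fn1 together and at least 3 of Lyz2. It held under 5 UMIs of the C1q genes, none of Xcr1, Clec9a, Cd209a or Cd79a, and under 2% of its UMIs from S100a8, S100a9 and Retnlg. The rule therefore sets the levels of these genes, and their values below are descriptions with no test.

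The study made livers from tetraploid cells in mice. Both hosts lacked Hhex and had received tetraploid (4N) embryonic stem cells marked with tdTomato when they were blastocysts. One liver is labelled as taken at E18.5, before birth, and the other at P180, 180 days after birth. Both were profiled with droplet 3′ single-cell RNA sequencing. No diploid liver and no unmarked host are analysed here, and the gene table used here holds no tdTomato, so donor and host cells were not separated. With 1 library per label there is no replicate of any group. Cells of 1 liver are not replicates, so no test across samples was possible, and every interval below covers counting error only.

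Monocytes are blood leukocytes of the myeloid line that leave the marrow or fetal liver, patrol vessels and enter tissue. In mice the classical form carries Ly6C and the chemokine receptor CCR2, while the non-classical form has little Ly6C and depends on the nuclear receptor NR4A1. In the liver, monocytes can enter from blood and give rise to macrophages and to antigen-presenting cells, and interferon gamma makes them produce the T cell attractants CXCL9 and CXCL10.

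Some facts on the libraries touch every result. Kept barcodes number 4721 of 9871 in the library labelled E18.5 and 9582 of 9771 in the library labelled P180, and the files hold 37709972 UMIs under the label E18.5 and 90128038 under the label P180. Cell contents went against the stage labels. B cells with at least 2 Cd79a UMIs were 27.2% of kept barcodes in the library labelled E18.5 and 2.15% in the library labelled P180. Barcodes with at least 10% haemoglobin UMIs were 2.84% in the library labelled E18.5 and 78.4% in the library labelled P180, although red cell formation in the liver belongs to fetal life. Xist, the RNA of the inactive X chromosome, had 39773 UMIs over kept barcodes labelled E18.5 and 8 over those labelled P180. The Y-linked gene Eif2s3y had 0 UMIs over kept barcodes labelled E18.5 and 4428 over those labelled P180, so the libraries also differed in their sex-linked RNA. Stage, sex, depth and library cannot be told apart in any comparison across the labels. The 2 libraries share 28 barcodes, 0 of them among the monocytes. Hhex, the gene deleted in the hosts, was read in 60 of 145 monocytes with 97 UMIs. The labels do not separate donor from host cells, so this reading checks no genotype.

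The members were of fair depth. Their UMI totals ran between 3279 and 31682 with a median of 8305, and the median number of genes was 2614. Summed over all 145 cells, 1248401 UMIs stand behind the levels below, which are given as UMIs per 1000000 of that sum (CPM). For comparison there were 137 macrophages defined by C1q genes (median 7262 UMIs) and 63 dendritic cells defined by Cd209a (median 11325 UMIs), both from the same library, as well as 150 barcodes that met the monocyte rule in the library labelled P180 (median 28365 UMIs, 1.57% of those kept there).

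The genes of the rule were read in most members, as the choice of cells requires of them together. Lyz2, which encodes the lysozyme of myeloid cells, was read in all 145 cells with between 3 and 523 UMIs and a median of 136. Its level was 16910 CPM in monocytes, against 4836 in macrophages, 1090 in dendritic cells and 6675 in the cells labelled P180. Ms4a6c, a membrane protein gene of monocytes, was read in 142 members. Ccr2, the receptor that draws monocytes out of the marrow, was read in 124 members at 629 CPM, against 316 in macrophages, 211 in dendritic cells and 348 in the cells labelled P180. Ly6c2, which encodes the surface protein of classical monocytes, was read in 122 members with a median of 5 UMIs and a maximum of 59. As a background for Ly6c2, 4.28% of B cells (median 4928 UMIs) and 16.8% of T cells (median 5532 UMIs) of the same library held a UMI of it. With every cell thinned to 1000 UMIs, 46.9% of monocytes held Ly6c2, against 0.544% of B cells and 5.69% of T cells. Reads of Ly6c2 and its near-identical neighbour Ly6c1 may be divided between them by the counting, so its level is uncertain.

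Genes of classical monocytes that played no part in the rule were widespread too. Plac8, a small protein gene of monocytes and granulocytes, was read in 141 members at 3623 CPM, against 170 in macrophages, 1055 in dendritic cells and 2389 in the cells labelled P180. S100a4, a calcium-binding protein of motile cells, stood at 2566 CPM in monocytes, 123 in macrophages, 925 in dendritic cells and 367 in the cells labelled P180. Hp, which encodes the haemoglobin-binding protein haptoglobin, was read in 121 members at 545 CPM. Chil3, a chitinase-like protein of classical monocytes, was read in 87 members with at most 58 UMIs in a cell. Chil3 had 0 UMIs in both macrophages and dendritic cells and 16 in the cells labelled P180. Of the 5 genes given to mark these cells, Lyz2, Ms4a6c, Ly6c2 and Ccr2 are in the rule, so their presence was fixed by the choice of cells and checks nothing. The fifth, Cxcl9, which the rule did not use, was read in 18 members.

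Cells at the edge of the rule differed from those at its centre. In the 12 members with 5 to 7 UMIs of the monocyte genes, Chil3 stood at 135, Plac8 at 1657, Vcan at 215 and the class II chaperone Cd74 at 3906 CPM. In the 26 members with 8 to 19, Chil3 stood at 162, Plac8 at 2416, Vcan at 23.8 and Cd74 at 5331 CPM. In the 107 members with 20 or more, Chil3 stood at 618, Plac8 at 4038, Vcan at 218 and Cd74 at 1240 CPM. The 2 barcodes just outside, with a sum of 3 or 4, had 0 for Chil3 and 12069 CPM for Cd74. The members nearest the threshold thus had less Chil3 and Plac8 and more Cd74 than those far above it, and Cd74 was highest in the members between. Vcan, another classical gene, was at a like level at both ends but lower in the members between.

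**Figure D1:**
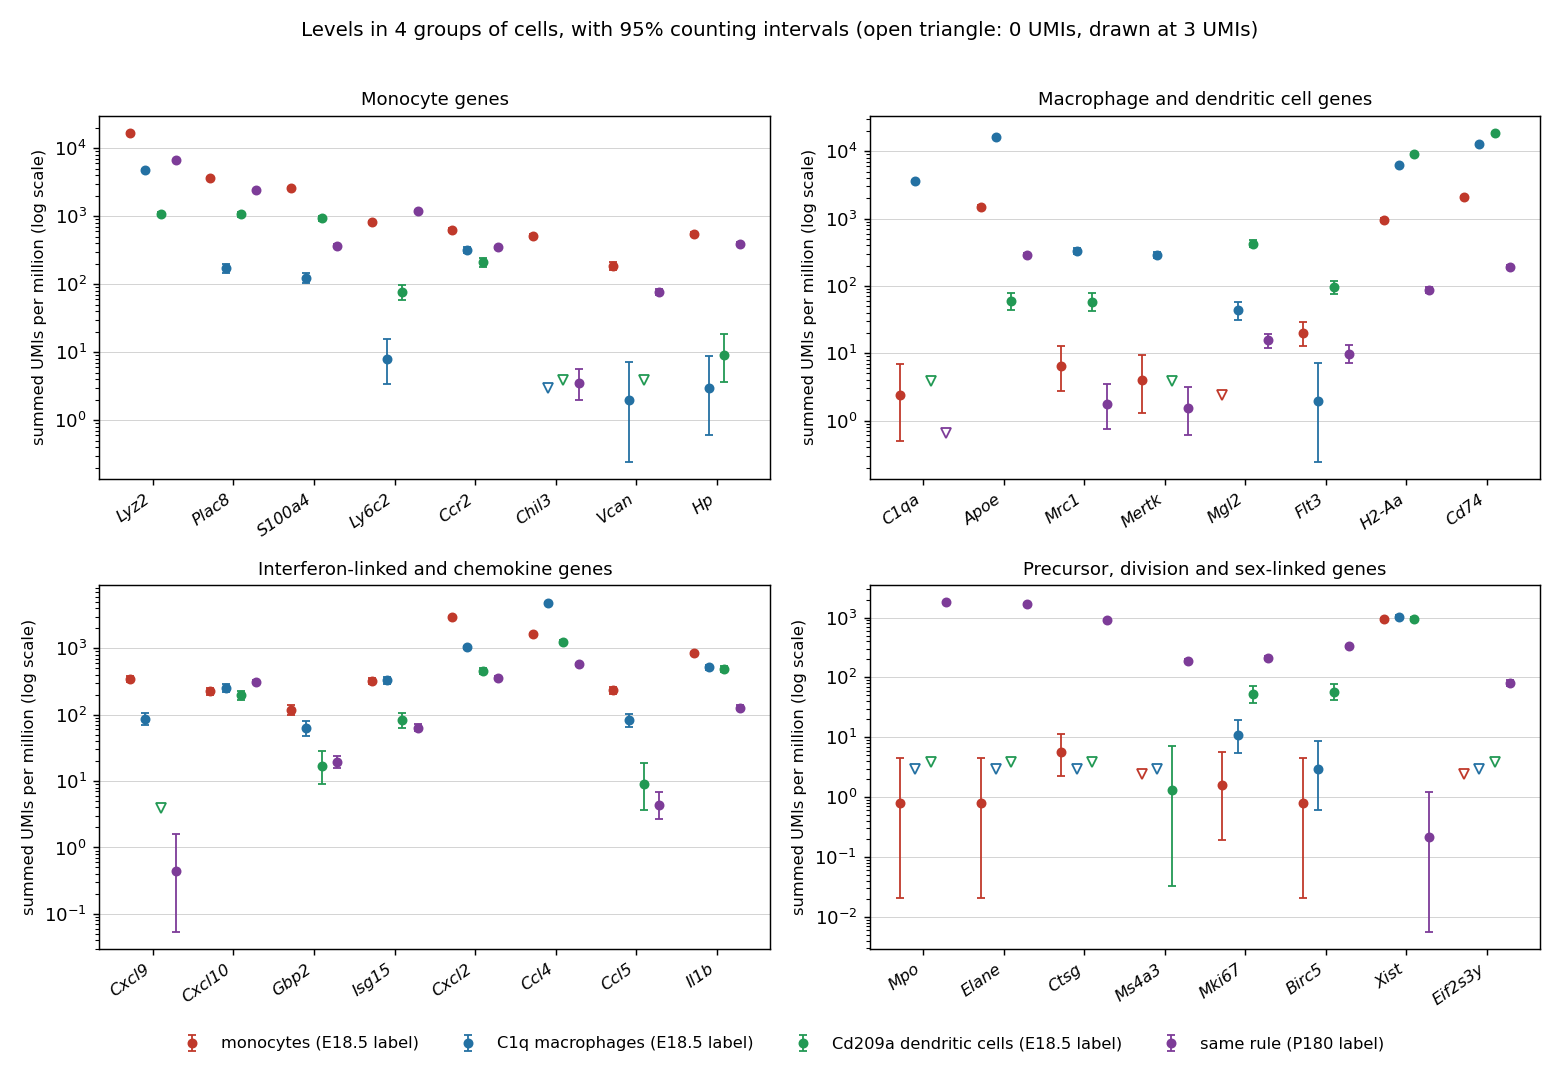
Levels of selected genes in the 145 monocytes, 137 C1q macrophages and 63 Cd209a dendritic cells of the library labelled E18.5 and the 150 cells under the same rule labelled P180, in CPM on a log axis, with bars for 95% Poisson intervals that cover counting error only. Lyz2 was highest in the monocytes at 16910 CPM, and Chil3 was at 0 in macrophages and dendritic cells.

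Markers of other cell types were mostly low in the members, with a few cells as exceptions. Clec4f, Vsig4, Timd4, Cd5l and Marco, which mark liver-resident macrophages, were all at 0 UMIs, which allows up to 2.40 CPM each. Ccr7 and Siglech, of migratory and plasmacytoid dendritic cells, were at 0 as well. Summed haemoglobin and other red cell markers stood at 509 CPM in monocytes, against 11842 in macrophages, 7958 in dendritic cells and 12599 in the cells labelled P180. Summed neutrophil markers stood at 278 CPM in monocytes and 3759 in the cells labelled P180.

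Of the 145 members, 8 held at least 10 UMIs of any 1 of the bile duct, hepatocyte, natural killer cell, T cell or endothelial marker lists, and these are called mixed below. Red cell markers, which 8 members held at 10 or more UMIs, were not counted here, nor were B cell, plasma cell or neutrophil markers. The deepest member, with 31682 UMIs, held 350 of the 395 UMIs of bile duct markers and 204 of the 476 of hepatocyte markers. Another, with 10480 UMIs, held 111 of the 131 UMIs of natural killer cell markers. Single cells therefore made whole gene levels. Clu, a secreted chaperone, had 353 of its 361 UMIs in 1 member, Spp1 (osteopontin) had 244 of 274 in 1 member, and the protease Gzma had all 56 in 1 member. Scrublet scores droplets for holding more than 1 cell. The 178 highest scores labelled E18.5 included 6 members, and the 735 highest labelled P180 included 1 of the 150 cells. The 178 and 735 were set from an assumed rate of 0.8% per 1000 barcodes, and Scrublet's own threshold was not used. No member was left out for its score in the values below, and counts without the 8 mixed members are given where they bear on a result.

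The members varied along several axes. Clustered on their own, without the rest of the library, they fell into 3 clusters of 62, 43 and 40 cells. The first was led by genes such as Chil3, Osm (the cytokine oncostatin M), Nlrp3 (an inflammasome sensor) and Klf6 (an early response transcription factor). The second was led in part by single cells, since Gzma came from 1 member. The third held 431 of the 432 Cxcl9 UMIs, all 124 UMIs of the proteoglycan gene Sdc4 and 378 of the 383 UMIs of the survival gene Bcl2a1b. The number of clusters changed with the settings and was 2, 4, 5 or 6 under the others tried. A cluster holding 430 or 431 of the Cxcl9 UMIs came back each time with 27 to 30 cells, of which 27 to 29 were in the third cluster. These leading genes were used to form the clusters and are descriptions.

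**Figure D2:**
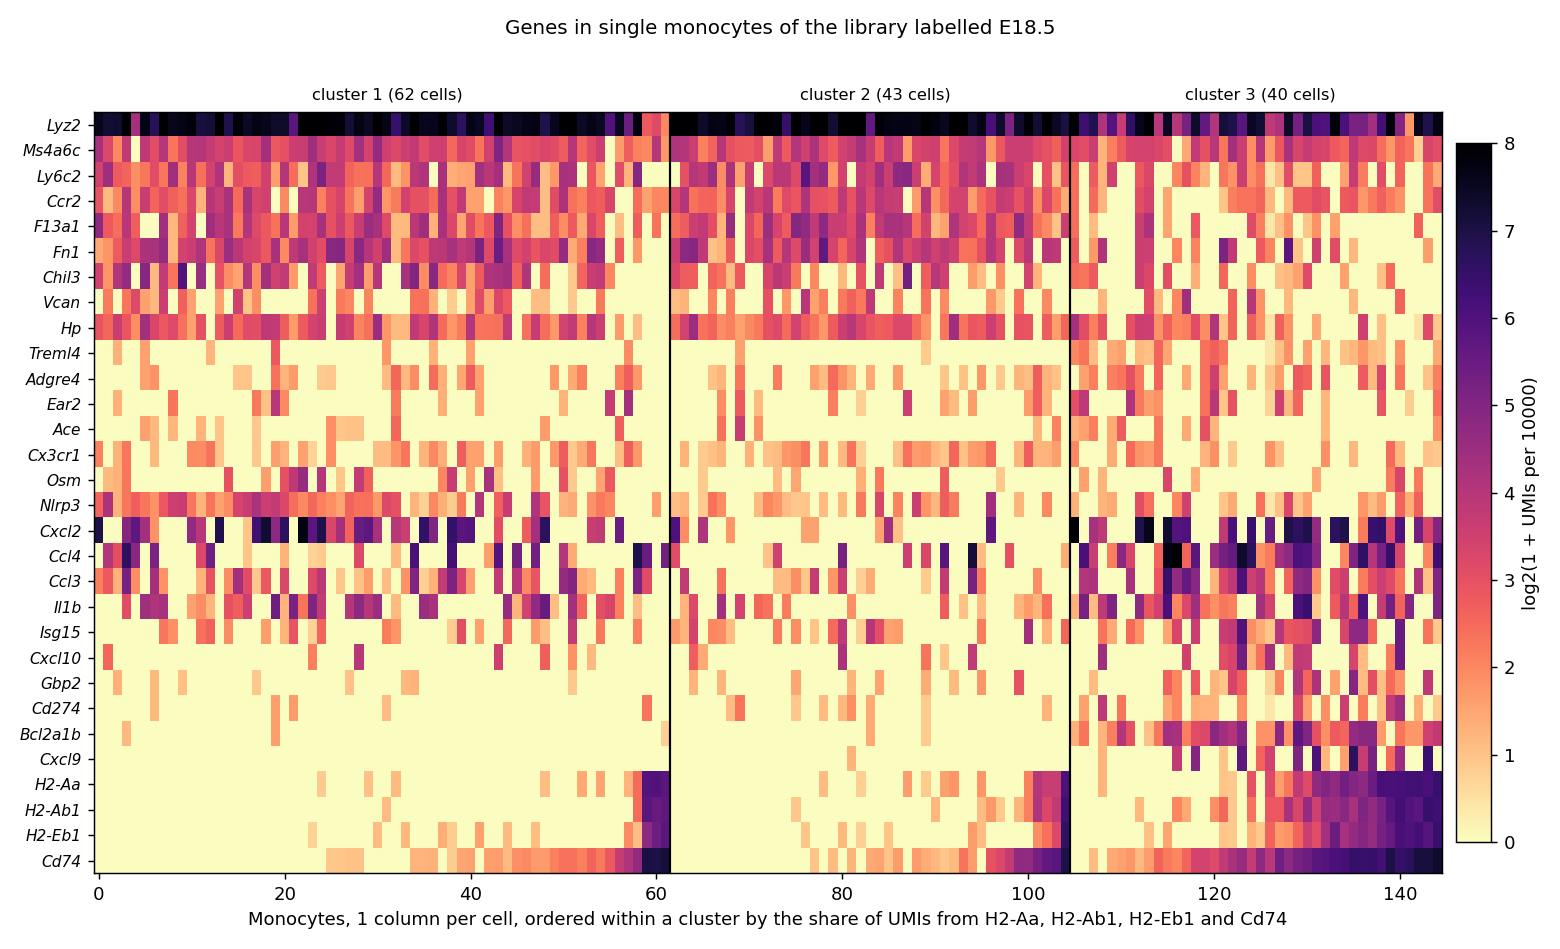
Each column is 1 of the 145 monocytes ordered by cluster and each row a gene, shaded by log2 of UMIs per 10000 plus 1, so that zero has the palest shade. Within each cluster the cells run from the lowest to the highest share of class II UMIs. Cxcl9 lies in the third cluster but for 1 UMI, while Lyz2 is seen in all 145.

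Cxcl9, a ligand of CXCR3 on activated T cells, was the most unevenly spread of the marker genes given. It had 432 UMIs in monocytes, or 346 CPM (95% interval 314 to 380), against 86.9 in macrophages, 0 in dendritic cells and 0.44 in the cells labelled P180. Of the 145 members, 127 had no UMI, 4 had 1, 4 had 2 to 9 and 10 had 10 or more. The 3 highest held 82, 77 and 76 UMIs, which is more than all the others together. A UMI of Cxcl9 was held by 12.4% of monocytes and by 5 of the macrophages. The share was lower in lymphocytes of the same library, at 0.311% of B cells and 0.236% of T cells. The part of free RNA in these shares was not tested. Thinned to 1000 UMIs, 7.59% of monocytes held Cxcl9, against 0.156% of B cells and 0 T cells.

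The 18 members with Cxcl9 had a median of 8390.5 UMIs, close to the 8305 of the 127 without it. Several other genes that answer to interferon were read more often in them. Gbp2, a guanylate-binding protein of the interferon gamma response, was read in 14 of the 18 members with Cxcl9 and in 24 of the 127 without it. Without the 8 mixed members the counts for Gbp2 were 12 of 15 with Cxcl9 and 23 of 122 without. Cd274, which encodes the checkpoint ligand PD-L1, was read in 12 members with Cxcl9 and 22 without. The ubiquitin-like protein gene Isg15 was read in 15 with and 51 without. The larger share lay with the Cxcl9 cells for these 3 genes, but not for every gene of the interferon gamma response. Socs1, an inhibitor of the interferon signal, was read in 1 with and 14 without, and Fcgr1, a high-affinity receptor for IgG, in 5 with and 53 without, smaller shares of the Cxcl9 cells. These genes were named after their values were seen.

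Ccl5 and Bcl2a1b followed Cxcl9 as well. Ccl5, a chemokine that T cells also make, was read in 9 of 18 members with Cxcl9 and in 5 of 127 without. After the mixed members were left out it was read in 9 of 15 with Cxcl9 and 3 of 122 without, with 113 UMIs in the first set and 13 in the second. Ccl5 was read in 58.9% of T cells, so free RNA can add to its count. Bcl2a1b was read in 16 members with Cxcl9 and 25 without, but its reads can be divided among the near-identical copies Bcl2a1a, Bcl2a1b and Bcl2a1d.

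Some classical genes were read less often in the Cxcl9 cells. F13a1, the coagulation factor XIII subunit of classical monocytes, was read in 5 of 18 members with Cxcl9 (27.8%) and 107 of 127 without (84.3%). Chil3 was read in 5 with and 82 without. Ly6c2 and Ccr2 were read in close shares of both sets, but at lower levels in the Cxcl9 cells. Ly6c2 was read in 14 members with Cxcl9 (77.8%) and 108 without (85.0%), and Ccr2 in 16 with (88.9%) and 108 without (85.0%). Ly6c2 stood at 290 CPM in the members with Cxcl9 and 888 in those without, and Ccr2 at 370 with and 671 without. Across the 145 cells, which share a library, the correlation with Cxcl9 was 0.72 for Gbp2 and 0.52 for Isg15 on the log scale. F13a1, Ly6c2 and Ccr2 are in the selection rule, so part of their pattern was fixed by the choice of cells.

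**Figure D3:**
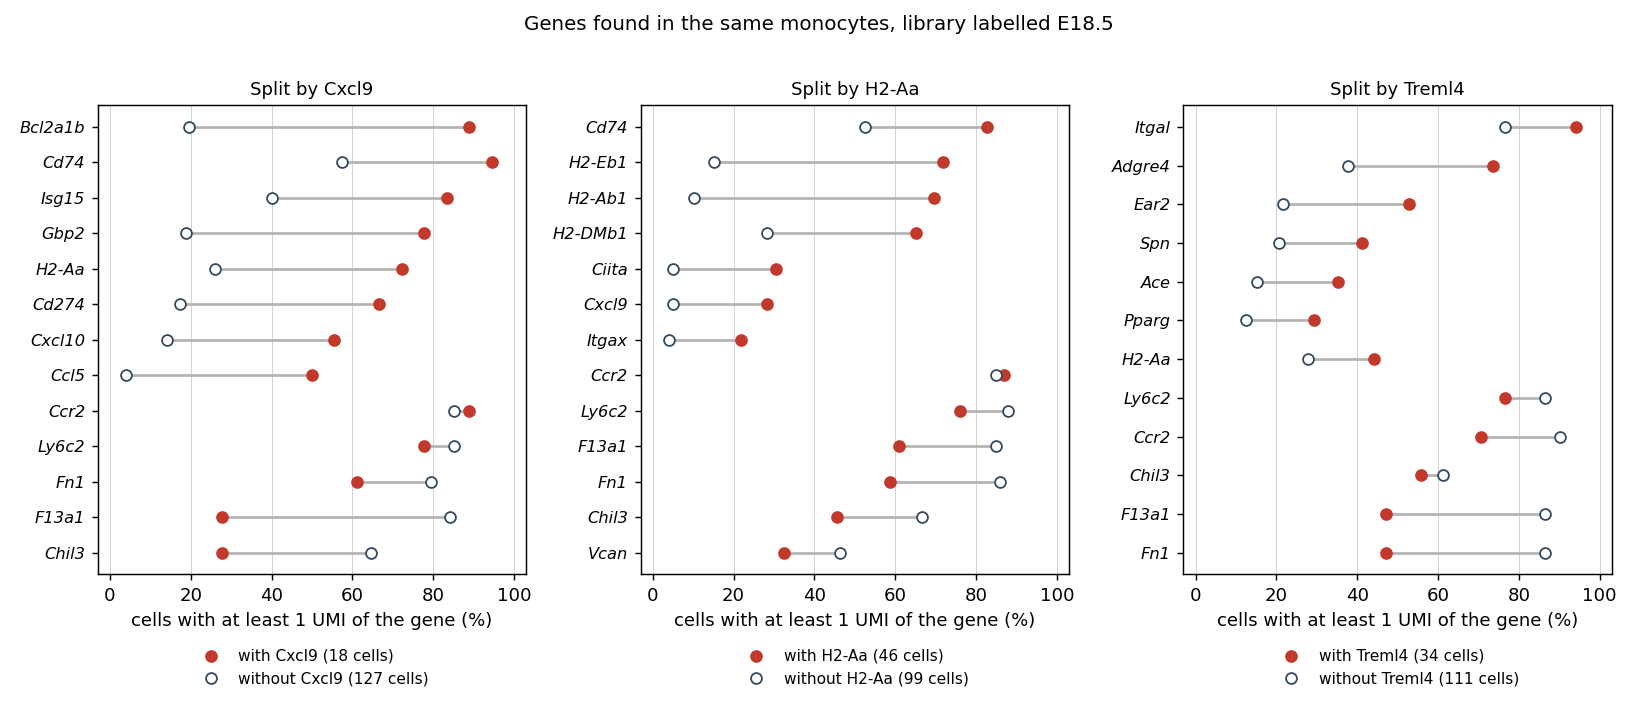
Percent of monocytes holding a UMI of each gene, among members with and without Cxcl9, with and without H2-Aa, and with and without Treml4. Gbp2 was read in 77.8% of the 18 members with Cxcl9 and 18.9% of the 127 without, while F13a1 was read in 27.8% of those with Cxcl9 and 84.3% of those without.

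The promoters of Cxcl9, Cxcl10 and H2-Aa are printed because these genes carried the differences among the members. They are the 250 bases before the start site, from RefSeq on GRCm38.p6, and each is read on the minus strand, 5′ to 3′. Cxcl9 lies at chr5:92328080-92328329, Cxcl10 at chr5:92348890-92349139 and H2-Aa at chr17:34287824-34288073. Capitals mark matches to CCAAT on either strand and, in Cxcl10, to an interferon-stimulated response element (a pair of TTTC with 2 bases of any kind between, read here on the opposite strand).
Cxcl9: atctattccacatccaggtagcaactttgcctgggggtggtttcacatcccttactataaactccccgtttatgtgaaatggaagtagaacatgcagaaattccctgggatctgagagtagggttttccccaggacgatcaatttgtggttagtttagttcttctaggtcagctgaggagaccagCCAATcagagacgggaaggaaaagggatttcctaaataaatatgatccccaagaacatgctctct
Cxcl10: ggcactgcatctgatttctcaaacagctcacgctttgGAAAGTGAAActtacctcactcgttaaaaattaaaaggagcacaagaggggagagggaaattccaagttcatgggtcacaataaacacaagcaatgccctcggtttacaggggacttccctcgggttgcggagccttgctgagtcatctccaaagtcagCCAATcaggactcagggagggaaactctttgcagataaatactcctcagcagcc
H2-Aa: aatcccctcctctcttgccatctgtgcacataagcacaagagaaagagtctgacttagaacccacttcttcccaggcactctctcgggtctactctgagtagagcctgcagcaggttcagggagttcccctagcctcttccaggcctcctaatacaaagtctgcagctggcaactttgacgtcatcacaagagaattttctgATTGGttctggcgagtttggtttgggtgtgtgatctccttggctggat

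In the Cxcl10 promoter the response element lay 213 to 204 bases before the start. The CCAAT match lay 65 to 61 bases before the start in Cxcl9, 54 to 50 in Cxcl10 and 48 to 44 in H2-Aa. Over 32851 mouse promoters of the same length, 33.8% held CCAAT and 2.98% the response element. The gamma-activated site TTCNNNGAA was searched too and is held by 7.02%, and the NF-kB motif (GGG, 2 bases of any kind, TTTCC) by 1.41%. None of the printed windows had either of the last 2. A match is only a run of letters, and its absence says that these letters are not in this window.

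Class II antigen presentation was divided unevenly among the members. H2-Aa, the alpha chain of a class II molecule that shows peptides to helper T cells, was at 0 in 99 members, at 1 UMI in 14, at 2 to 9 in 10 and at 10 or more in 22. T cells, which should lack it, held a UMI in 9.69% of cells, and after thinning the share was 21.4% of monocytes against 2.61% of T cells. H2-Ab1, which encodes the partner beta chain, was read in 32 of the 46 members with H2-Aa and 10 of the 99 without. Cd74, the chaperone of class II molecules, was read in 38 with and 52 without, and Ciita, the master activator of class II genes, in 14 with and 5 without. The members with H2-Aa were somewhat deeper, with a median of 9067 UMIs against 7860 in those without. Across cells the correlation of H2-Aa was 0.95 with H2-Ab1 and 0.84 with Cd74. Members with 60, 98, 61 and 74 UMIs of H2-Aa held only 8, 3, 6 and 4 of Lyz2. They held no Ly6c2, Fn1 or Chil3, so the name monocyte is uncertain for them. Other members with much H2-Aa, at 201 and 102 UMIs, held 523 and 248 of Lyz2.

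Class II genes and several classical genes ran against each other, though not every classical gene did so in its share of cells. Fn1 (fibronectin) was read in 27 of 46 members with H2-Aa and 85 of 99 without, and F13a1 in 28 with and 84 without. The correlation of Cd74 across the 145 cells was -0.53 with Fn1 and -0.49 with F13a1. Both Fn1 and F13a1 are rule genes, so part of this was fixed by the choice of cells. Outside the rule, Chil3 was read in 21 members with H2-Aa (45.7%) and 66 without (66.7%). Vcan was read in 15 with (32.6%) and 46 without (46.5%). The rule gene Ccr2 was read in 40 with (87.0%) and 84 without (84.8%), at 432 and 743 CPM. Cxcl9 and H2-Aa met in 13 of the 18 members with Cxcl9 and so in 13 of the 46 with H2-Aa.

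Some members carried several genes of non-classical monocytes, and they overlapped with the members described above. Treml4, a receptor that enhances nucleic acid sensing, had 56 UMIs in 34 members. Adgre4, an adhesion receptor, was read in 25 of the 34 members with Treml4 and 42 of the 111 without. Ear2, an eosinophil-associated ribonuclease, was read in 18 with and 24 without, and Ace, which encodes angiotensin-converting enzyme, in 12 with and 17 without. F13a1 was read in 16 with and 96 without. Not every gene followed Treml4. Nr4a1 was read in 31 with (91.2%) and 105 without (94.6%), at 923 and 926 CPM, and Cx3cr1 in 61.8% with and 55.0% without. The classical gene Chil3 was read in 55.9% with and 61.3% without, and Ly6c2 in 26 with (76.5%) and 96 without (86.5%). Of the members with Treml4, 24 were in the third cluster, which held nearly all Cxcl9 UMIs. The members with Treml4 were shallower, with a median of 7702 UMIs against 8624 in those without, and the part of depth was not tested. Treml4 and H2-Aa met in 15 members and Treml4 and Cxcl9 in 8.

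The members with Chil3 were poor in class II. Among the 87 members with Chil3, 42 held Cd177 and 41 held Mmp8, both neutrophil and classical monocyte genes. Among the 58 without Chil3, 8 held Cd177 and 13 held Mmp8. H2-Aa was read in 21 with Chil3 and 25 without, and Hp in 79 with and 42 without.

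Receptors and defence genes of circulating phagocytes were read in most members. Fcer1g, the signalling chain of Fc receptors, was read in 144 members with a median of 20 UMIs and a maximum of 54. Cybb, the catalytic subunit of the phagocyte oxidase, was read in 143 with a median of 13, and Ctss, a lysosomal protease that trims the class II chaperone, in all 145 with a median of 11. Spi1 (PU.1), the factor that sets the myeloid lineage, was read in 140 members and Klf2, a factor of quiescent leukocytes, in 144. These genes were thus read in nearly all members, whatever their Cxcl9, H2-Aa or Treml4. Csf1r, the growth factor receptor of monocytes and macrophages, was read in 127 members, Cxcr4, a receptor that holds cells in the marrow, in 110, and Itga4, an integrin chain for adhesion to vessels, in 124. Tlr2, a sensor of bacterial lipoproteins, was read in 59 members and Tlr4, a sensor of lipopolysaccharide, in 24. Genes confined to fewer members were Acod1, the itaconate-making enzyme, in 29 and the decoy receptor gene Il1r2 in 9, where 1 cell held 39 of its 55 UMIs.

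Early response and inflammatory genes were abundant and uneven. Cxcl2, which draws neutrophils, had 3648 UMIs in 72 members with up to 220 in a cell. Ccl4, a chemokine that draws leukocytes, had 2023 UMIs in 66 members, and Il1b, the inflammatory cytokine interleukin 1 beta, had 1045 in 80. By contrast Il6 had 1 UMI, Il12b had 0 and Il10 had 4. The inducible nitric oxide synthase Nos2 had 1 UMI and Arg1 had 0, so neither enzyme of the textbook activation states was detectable beyond these counts. Genes that cell dissociation induces, such as Fos, made up a median of 4.06% of a monocyte's UMIs, against 1.44% in macrophages, 3.04% in dendritic cells and 1.51% in the cells labelled P180. Their part in the chemokine and cytokine values was not tested.

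Against the C1q macrophages of the same liver, the monocytes had more of the classical monocyte genes and far less of the macrophage and class II programmes. Of 4086 genes with at least 50 UMIs in either group, 444 were at least 2-fold higher in monocytes (10.9%) and 510 at least 2-fold lower (12.5%). Of the 4086, 754 were measured through the monocytes only and 472 through the macrophages only. The rule used the C1q genes and the monocyte genes, so the contrast in those genes was chosen. Of 24 classical monocyte genes outside the rule, 15 were higher and 1, Ly6a, was lower, with a median log2 difference of 2.49 against 0.027 over all measured genes. Genes with at least 200 UMIs over both groups were ranked by the end of the counting interval nearest to no change, and those named next stood first.

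Chil3 led, with 640 UMIs in monocytes and 0 in macrophages, which makes it at least 173-fold higher against a floor of 3 UMIs in the group. Hp followed with 680 UMIs in monocytes and 3 in macrophages, a ratio of 184 with a 95% counting interval of 62.6 to 894. Vcan, an extracellular matrix proteoglycan, had 231 UMIs in monocytes and 2 in macrophages, a ratio of 93.7 (25.6 to 778). F10, which encodes coagulation factor X, had 271 UMIs in monocytes and 2 in macrophages (ratio 110, 30.1 to 912). All 4 had at most 3 UMIs in the macrophages. Slpi, a secreted inhibitor of neutrophil proteases, was 87.6-fold higher (37.3 to 271), and Ifitm6, a membrane protein of the interferon-induced family, was 81.3-fold higher. Mcemp1, a mast cell and monocyte membrane protein, had 211 UMIs in monocytes and 1 in macrophages. Sgms2, which makes sphingomyelin, was at least 76.5-fold higher and Arhgef37 at least 66.5-fold, and the phospholipase Plcb1 was 56.9-fold higher.

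The transcription factors moved in both directions. Cebpb, which Ly6C-low monocytes need to survive, was 4.41-fold higher (3.91 to 4.98), at 1398 CPM in monocytes against 317 in macrophages. Klf4, which drives monocyte differentiation, was 3.67-fold higher, at 1347 CPM in monocytes against 367 in macrophages. Nr4a1, the regulator of non-classical monocytes and also an early response gene, was 5.51-fold higher. Maf, a regulator of macrophage identity, was 6.27-fold lower (5.17 to 7.66). In all 6 of 26 factors were higher and 5 lower, and 9 of 20 dissociation genes were higher with none lower.

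The lower genes were those of resident macrophages. Of 24 measured Kupffer and tissue macrophage genes, 20 were lower and none was higher, with a median of -3.40. The 20 include C1qa, C1qb and C1qc, whose direction was fixed by the choice of cells. Only 10 genes of the list held 50 UMIs in the monocytes. The others were measured through the macrophages alone, so the count and median lean to lower values by that choice. Cd207 (langerin, an endocytic lectin) had 1 UMI in monocytes and 1010 in macrophages, and Negr1, an adhesion protein, had 1 in monocytes and 688 in macrophages. The chemokine Cxcl14 had 0 UMIs in monocytes and 340 in macrophages, at least 140-fold lower. Langerin marks Langerhans cells of the skin as well. Vsig4, a complement receptor of liver macrophages, was at least 93.7-fold lower. Mertk, the receptor by which macrophages take up dying cells, was 71.8-fold lower, Mrc1 (the mannose receptor) 51.2-fold and the adaptor Dab2 58.7-fold. The protease Adamdec1, the adhesion molecule Cadm1 and the integrin chain Itga9 were 60.2-fold, 66.3-fold and 55.5-fold lower. Apoe, the lipid carrier of macrophages, had a log2 difference of -3.46, at 1495 CPM in monocytes against 16429 in macrophages.

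Class II genes were lower in the monocytes but not absent. Of 11 measured, 7 were lower and 1, the costimulatory receptor Cd40, was higher, with a median of -1.64. H2-Aa stood at 950 CPM in monocytes and 6200 in macrophages, and Cd74 at 2087 in monocytes and 12904 in macrophages. Of 19 class I genes none passed 2-fold in either direction. Interferon gamma response genes were 5 higher and 5 lower of 23, and type I interferon genes 5 higher and 7 lower of 31, so neither list ran in 1 direction. Chemokine ligands were also divided, 6 higher and 5 lower of 14. Cxcl9 was 3.98-fold and Cxcl2 2.83-fold higher, while Ccl4 was 2.99-fold lower, at 1620 CPM in monocytes against 4853 in macrophages. The haemoglobin genes, whose copies share reads, were all lower in monocytes, with Hbb-bs 22.7-fold lower, and the part of this free RNA in the other values was not tested. Without the 8 mixed members 439 genes were higher and 533 lower of 3945.

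Receptor and defence lists against macrophages were divided. Pattern recognition genes were 4 higher and 5 lower of 16. Clec4d, a lectin receptor and partner of Mincle, was 40.6-fold higher with 150 UMIs in monocytes and 3 in macrophages (counting interval 13.6 to 199), while Trem2, a lipid receptor of macrophages, was 4.09-fold lower. Fc receptor and phagocytosis genes were 2 higher and 6 lower of 21. Fcgr4, a receptor for IgG that non-classical monocytes carry, was 14.3-fold lower, at 39.3 CPM in monocytes against 563 in macrophages, and Axl, a receptor for dying cells, 10.1-fold lower. C3, the central complement component, was 6.15-fold higher. Oxidase and antimicrobial genes were 4 higher and 1 lower of 10, with Acod1 12.7-fold and Sod2, the mitochondrial superoxide dismutase, 3.38-fold higher. Growth factor and cytokine receptor genes were 6 higher and 3 lower of 16, with Csf3r, the receptor for granulocyte colony-stimulating factor, 2.77-fold higher. Non-classical genes were 4 higher and 6 lower of 15, and Cx3cr1 was 4.87-fold lower, at 122 CPM in monocytes against 594 in macrophages.

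Against the Cd209a dendritic cells, the monocytes had more innate defence genes and fewer class II genes. Of 3764 measured genes 488 were higher in monocytes (13%) and 257 lower (6.83%), with a median log2 difference of 0.096. The dendritic cells held 0.62 times as many UMIs. Of the 3764, 1323 were measured through the monocytes only and 150 through the dendritic cells only, so the measured genes lean to those of the monocytes. Absence of Cd209a was part of the rule. Of 14 class II genes, 10 were lower and none was higher, with a median of -3.23. H2-Eb1 was 12.7-fold, H2-Ab1 10.6-fold and H2-Aa 9.74-fold lower, and Cd74 was 9.06-fold lower, at 2087 CPM in monocytes against 18922 in dendritic cells. Of 15 dendritic cell genes 9 were lower and 2 higher. The 9 include Cd209a, whose direction was fixed by the choice of both groups. Only 8 genes of the list held 50 UMIs in the monocytes, and the others were measured through the dendritic cells alone. Mgl2, a lectin of type 2 dendritic cells, had 0 UMIs in monocytes and 329 in dendritic cells, at least 177-fold lower, and its relative Clec10a was 12.7-fold lower. Flt3, the growth factor receptor on which dendritic cells depend, was 4.78-fold lower, with 25 UMIs in the monocytes. The cyclin gene Ccnd1 (23.7-fold), the lectin-like receptor gene Klrd1 (21.7-fold), Rtn1 (11.3-fold) and Trerf1 (9.27-fold) were lower as well.

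Receptors for microbial products were higher in monocytes. Of 15 measured pattern recognition genes 12 were higher and none lower, with a median of 2.07. All 15 held 50 UMIs in the monocytes, and none was measured through the dendritic cells alone, so the count leans to higher values. Clec4e (Mincle, a sensor of mycobacterial lipid) had 298 UMIs in monocytes and 2 in dendritic cells, a ratio of 92.3 with a counting interval of 25.3 to 766. Cd14, the co-receptor for bacterial lipopolysaccharide, was 7.47-fold higher. Tlr7, a sensor of single-stranded RNA, was 6.04-fold higher. Genes of the phagocyte oxidase and of antimicrobial defence were 7 higher and none lower of 10. Cybb, the catalytic subunit of that oxidase, was 3.37-fold higher. Chemokine ligands were 7 higher and none lower of 11. The 10 oxidase and antimicrobial genes and the 11 chemokine ligands likewise all held 50 UMIs in the monocytes.

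Of 17 Fc receptor and phagocytosis genes 7 were higher than in dendritic cells and 1 was lower, and of 23 lysosomal genes 10 were higher and 2 lower, the others being within 2-fold. Fcgr3, a receptor for IgG, was 6.90-fold higher, at 187 CPM in monocytes against 27.2 in dendritic cells, and Ctsd, the lysosomal protease cathepsin D, 6.02-fold higher. Iron and lipid genes were 11 higher and none lower of 22, with Hmox1, the haem-degrading enzyme, 4.22-fold and Lpl, lipoprotein lipase, 4.45-fold higher. Il1rn, the antagonist of interleukin 1, had 109 UMIs in monocytes and 0 in dendritic cells, at least 22.5-fold higher. Of 8 measured proliferation genes 5 were lower and none was higher in monocytes. Class I genes had none past 2-fold of 18.

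Classical and non-classical genes were both higher than in dendritic cells, 16 of 24 and 10 of 14, each with 1 lower. Chil3 was at least 132-fold, Cxcl9 at least 89.2-fold, Apoc2 (an apolipoprotein) at least 48.7-fold and Vcan at least 47.7-fold higher. Hp was 60.2-fold and Mgst1, a membrane glutathione transferase, 66.7-fold higher. Apoe was 25.1-fold higher. Arhgef37, with 3 UMIs in dendritic cells, gave a ratio of 50.8 (17.2 to 248), and F10, with 271 UMIs in monocytes and 1 in dendritic cells, a ratio of 168 (29.9 to 6654). Cebpb was 10.6-fold higher. Type I interferon genes were 11 higher and 1 lower of 28, with Isg15 3.91-fold and Gbp2 7.0-fold higher. Without the mixed members, 472 genes were higher and 281 lower of 3542.

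The library labelled P180 held 150 barcodes under the same rule, and most of them carried genes of myeloid precursors. Of the 150, 91 held at least 10 UMIs of Mpo, Elane, Prtn3, Ctsg and Ms4a3, the granule and membrane genes of myeloid precursors, and among the 145 monocytes none did, with a maximum of 4. Mpo (myeloperoxidase) had 1 UMI in the monocytes and 8176 in the cells labelled P180, and the protease Elane had 1 in the monocytes and 7800 in the cells labelled P180. UMIs of a set of mitosis genes were found in 5 of 145 monocytes (3.45%) and 141 of 150 cells labelled P180 (94%). The proliferation marker Mki67 had 2 UMIs in the monocytes and 971 in the cells labelled P180, which were also deeper. The same rule thus took cells with few precursor or division genes under the label E18.5 and cells rich in both under the label P180.

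Of 8058 genes measured between these groups, 798 were at least 2-fold higher in monocytes (9.9%) and 2214 lower (27.5%), with a median log2 difference of -0.386 over all genes. The cells labelled P180 held 3.66 times as many UMIs, and 4444 genes were measured through them only, against 80 through the monocytes only. Scaling by the median of the gene ratios moved the median difference to -0.018 and the counts to 1265 higher and 1463 lower, so 46.4% of called genes were higher instead of 26.5%. With the 91 precursor-like barcodes left out, 59 remained, and 386 genes were higher and 471 lower of 4214.

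Proliferation and granule genes were among those lower in the monocytes. Of 30 proliferation genes 29 were lower and none higher, with a median of -5.46, and 21 of 22 were lower against the 59 remaining cells. Only 5 of the 30 held 50 UMIs in the monocytes, so the others were measured through the cells labelled P180 alone. Pclaf, a replication clamp partner, was at least 205-fold lower, and the cell division genes Ccnb2 and Cdc20 at least 84.1-fold and 71.1-fold. Birc5 (survivin) had 1 UMI in the monocytes and 1516 in the cells labelled P180, 414-fold lower with a counting interval of 74.2 to 16364. Of 17 granule and early myeloid genes 13 were lower and 1, Cd177, was higher. Against the 59 remaining cells 4 of 7 were lower and 1 higher. Only 4 genes of this list held 50 UMIs in the monocytes, so most of the 17 were measured through the cells labelled P180 alone. The 13 include S100a8 and S100a9, which the rule limits in both groups. These counts are descriptions. Ctsg (cathepsin G) was 164-fold lower (79.3 to 407) and Prtn3 (proteinase 3) 81.0-fold lower (58.2 to 116). Ms4a3, which marks granulocyte and monocyte precursors, was at least 79.6-fold lower, and Stfa1, a protease inhibitor of granulocytes, at least 390-fold lower. Ctsg and Ms4a3 took the other direction once the 91 barcodes that define the precursor group were left out, which the choice of those barcodes fixes.

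Interferon-stimulated genes were higher in the monocytes labelled E18.5. Of 31 measured type I interferon genes 26 were higher and none lower, with a median of 1.93. With the median-of-ratios scaling 28 were higher. Against the 59 remaining cells the count was 10 higher and 1 lower of 29, with a median of 0.73, so the count was over 1.5 times smaller without the precursor-like cells. Isg15 was 5.05-fold higher (4.33 to 5.89), at 324 CPM in monocytes against 64.1 in the cells labelled P180, and Irf7, the factor that amplifies interferon production, was 3.89-fold higher. Ifitm3, which blocks virus entry, was 3.83-fold higher, at 3677 CPM in monocytes against 960 in the cells labelled P180.

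Interferon gamma response genes were 13 higher and none lower of 21, and 9 higher and 1 lower of 19 against the 59 remaining cells. Cxcl9, with 432 UMIs against 2, gave a ratio of 791 with a counting interval of 218 to 6552. Gbp2 was 6.05-fold and Cd274 9.02-fold higher. Cxcl10 stood apart, at 224 CPM in monocytes and 312 in the cells labelled P180, although in the Cxcl9 members it was read in 10 of 18, against 18 of 127 in the others.

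Class I and class II genes were also higher. Class I genes were 10 higher and 2 lower of 19, with the invariant chain B2m 4.37-fold and the heavy chains H2-K1 and H2-D1 7.20-fold and 5.26-fold higher. The near-identical class I heavy chains can exchange reads, so single copies are uncertain. Against the 59 remaining cells 8 of 18 were higher and none lower. Class II genes were 8 higher and 1 lower of 12, with Cd74 11.1-fold, H2-Aa 10.8-fold (9.62 to 12.1) and H2-Ab1 21.1-fold higher, and 6 higher and 1 lower of 11 against the remaining cells. H2-Aa stood at 950 CPM in monocytes and 88.2 in the cells labelled P180.

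**Figure D4:**
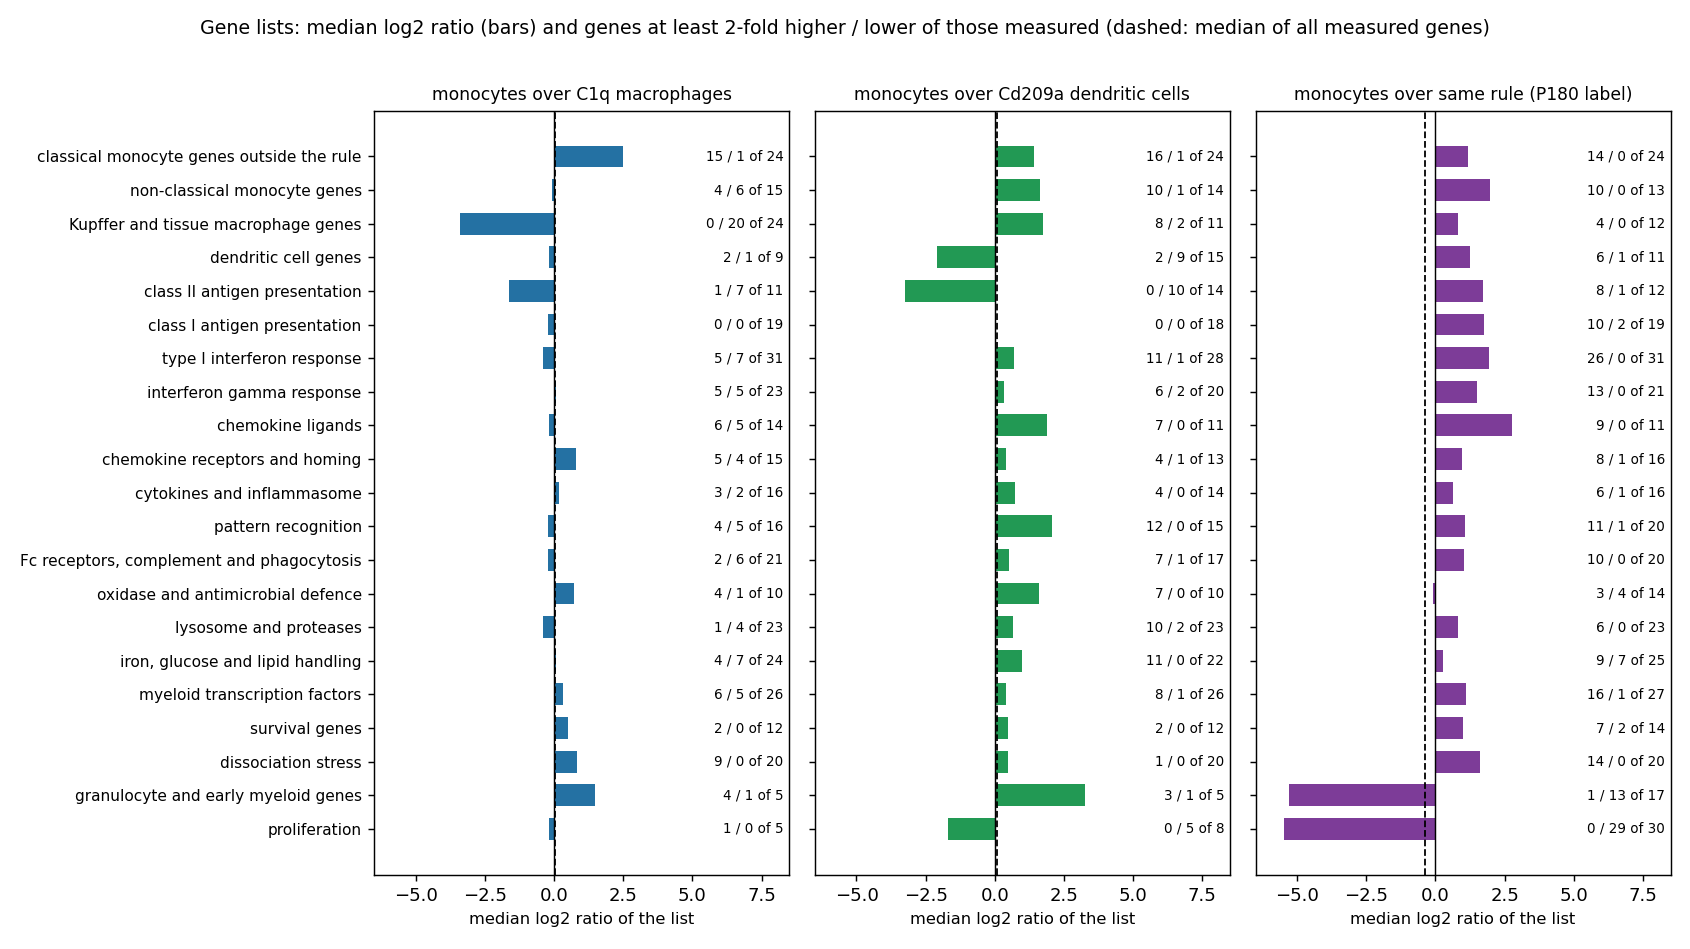
Median log2 difference of the monocytes over C1q macrophages, over Cd209a dendritic cells and over the cells of the same rule labelled P180, for each gene list, with the median of all measured genes as a line. Kupffer and tissue macrophage genes stood at -3.40 against macrophages, class II genes at -3.23 against dendritic cells and proliferation genes at -5.46 against the cells labelled P180. A gene was measured where either group held 50 UMIs. In these comparisons most of the Kupffer and the proliferation genes were measured through the other group alone.

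Chemokine ligands were 9 higher and none lower of 11, with a median of 2.75, and 6 higher and none lower of 11 against the 59 remaining cells. Ccl2, the ligand of CCR2, was 21.3-fold higher (15.8 to 29.1), at 242 CPM in monocytes against 11.4 in the cells labelled P180. Cxcl2 was 8.12-fold and Cxcl16, a ligand of CXCR6 on lymphocytes of the liver, 13.6-fold higher. Ccl5 was 52.9-fold higher but came from 14 members. Dissociation genes were 14 higher and none lower of 20 and moved with these lists, and their part was not tested.

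Sensors and receptors went the same way in the whole group but less so without the precursor-like cells. Pattern recognition genes were 11 higher and 1 lower of 20, and 5 higher and none lower of 16 against the 59 remaining cells. Tlr7 was 17.9-fold higher, at 62.5 CPM in monocytes against 3.50 in the cells labelled P180, and Clec4e 10.8-fold higher. Fc receptor and phagocytosis genes were 10 higher and none lower of 20, and 3 higher and 3 lower of 19 against the remaining cells. Cytokine and inflammasome genes were 6 higher and 1 lower of 16, and 4 higher and none lower of 14 against the remaining cells. Il1b was 6.55-fold and Nlrp3 5.28-fold higher, and Tnf, at 87.3 CPM in monocytes against 90.6 in the cells labelled P180, stayed within 2-fold.

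Monocyte maturity genes were higher as well. Classical genes were 14 higher and none lower of 24, and 6 higher and 1 lower of 24 against the 59 remaining cells. Chil3 was 146-fold (89.5 to 258) and S100a4 6.99-fold higher, while the rule genes Ly6c2 and F13a1 stayed within 2-fold, at 804 and 733 CPM in monocytes against 1206 and 567 in the cells labelled P180. Non-classical genes were 10 higher and none lower of 13. Cx3cr1, the fractalkine receptor of patrolling monocytes, was 7.42-fold higher (5.59 to 9.92), at 122 CPM in monocytes against 16.4 in the cells labelled P180. Csf1r, the growth factor receptor of monocytes and macrophages, was 3.09-fold higher. Cebpb was 2.17-fold higher, and 16 of 27 myeloid transcription factors were higher, with 1, Gfi1, lower. Against the 59 remaining cells 10 of 25 factors were higher and none lower.

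The other genes that the naming rule put first were mixed. Xist had 1180 UMIs in the monocytes and 1 in the cells labelled P180, in step with the libraries as a whole. Stxbp6, a vesicle fusion regulator, was 47.2-fold and the noncoding gene AW112010 37.2-fold higher. Gngt2, a G protein subunit of non-classical monocytes, was 22.6-fold and Bcl2a1d 24.8-fold higher. Clu was named by the rule too, but 1 member held nearly all of its UMIs.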

How the data were processed

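Single-cell RNA was measured in 2 mouse liver libraries, 1 per label. The authors' deposited matrices hold raw UMI counts per gene and barcode from Cell Ranger 7.1.0, per the file headers. Per the submitters' processing notes the build was mm10, and fastp, Trimmomatic, Seurat and edgeR were also named, with no role or version given in the sources used here. Barcodes were kept from 200 genes and 500 UMIs upward if mitochondrial UMIs made up less than 25%. Monocytes were chosen by fixed UMI thresholds, and comparison groups by C1q genes, Cd209a or the same rule. Lists and members were chosen with earlier results of these data known. Counts were summed per group, scaled per 1000000 (CPM) and given with exact Poisson 95% intervals. Ratios have exact conditional intervals and a floor of 3 counts where a group had none. Genes with at least 50 UMIs in either group were measured, and 2-fold was the call. Genes named were the first 10 in each direction by the interval end nearest no change, among genes with at least 200 UMIs over both groups, leaving out rule genes, mitochondrial genes and markers of other types. With 1 library per label there is no test, and edgeR was not run here. Clustering used leidenalg 0.10.2 and igraph 0.11.9 (1000 variable genes, 15 components, resolution 0.8). Scrublet was run through scanpy 1.11.5. Ratios were tested on simulated data. Alternatives were another count minimum, scaling, thinning every cell to 1000 UMIs, and leaving out deep cells or the barcodes of highest Scrublet score. Leaving out mixed members and leaving out precursor-like cells were alternatives chosen after seeing the data. Genes not in the gene table, such as Cxcl11, were not analysed here. Some genes are not reported here.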

Additional observations from a re-analysis of the deposited data

How the results depend on the processing

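No paired analysis was possible because each label has 1 library. Of 106 counts of called genes, members or clusters under the alternatives, 84 moved by less than 1.5 times. The other 22 follow, and their causes were not tested beyond what each setting changes. Against macrophages, 671 genes were higher and 1005 lower at a minimum of 20 UMIs, 192 and 136 at 200 UMIs, and 126 and 61 after thinning. Against dendritic cells these counts were 806 and 592, 181 and 61, and 98 and 17. Against the cells labelled P180, 1265 were higher and 1463 lower with median-of-ratios scaling, 383 and 977 at 200 UMIs, 140 and 89 after thinning, and 386 and 471 without precursor-like barcodes. The monocytes formed 6 clusters at resolution 1.2 and 5 with 2000 variable genes. Of 3918 gene differences 10 changed sign and the cause was not tested. Against dendritic cells the log2 difference was -0.79 for Cd63 after thinning. For Clu it was -0.014 without the highest Scrublet scores, -0.34 without the 5 deepest cells and -0.74 without mixed members. For Spp1 it was -0.79 without the highest Scrublet scores and -0.86 without mixed members. Against the cells labelled P180, Ctsg was at 2.61, Ms4a3 at 1.39 and Vcan at -0.18 without precursor-like barcodes, and Mgl2 at 0.039 after thinning. Of 1289 list medians 1 changed sign, pattern recognition against the cells labelled P180, at -0.039 with a minimum of 200 UMIs. Depth limits low genes: 0 UMIs over the monocytes allows 2.40 CPM.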

Other observations

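Genes of fetal and cancer cell growth were close to absent from the monocytes labelled E18.5. Igf2bp3, an RNA-binding protein of fetal tissue, had 4 UMIs in the monocytes and 846 in the cells labelled P180. Lin28b, which blocks maturation of let-7 microRNAs, had 0 in the monocytes and 53 in the cells labelled P180, and Hmga2, a chromatin protein of embryonic cells, 0 in the monocytes and 104 in the cells labelled P180. Of 5 measured genes of this list 4 were at least 2-fold lower and none was higher in the monocytes. No gene of the list held 50 UMIs in the monocytes, so all 5 were measured through the cells labelled P180 alone. H19, Igf2, Igf2bp1, Igf2bp2, Mest, Peg3, Dlk1 and Plagl1 had under 50 UMIs in both groups and were not measured. Against the 59 cells labelled P180 with under 10 UMIs of the precursor genes, 2 genes of the list were measured and 1 was lower. Fewer genes of any kind were measured there, 4214 against 8058, and the part of this loss of counts was not tested.

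Of 25 iron, glucose and lipid genes 9 were higher and 7 lower in the monocytes than in the cells labelled P180. Over all 8058 measured genes 9.9% were higher and 27.5% lower, so the count of lower genes was near the share of all genes. With median-of-ratios scaling 12 were higher and 4 lower, and against the 59 remaining cells 4 were higher and 4 lower of 23. The lower genes included several of sugar breakdown, named here after their values were seen. Gapdh stood at 638 CPM in the monocytes against 2283 in the cells labelled P180, and Ldha, which makes lactate, was 2.79-fold and Pgk1 2.72-fold lower. Tfrc, the receptor for iron-loaded transferrin, was 3.97-fold lower. Survival genes were 7 higher and 2 lower of 14, with Mcl1 and Bcl2 among the higher. Of 8 measured p53 targets 1, the cell cycle inhibitor Cdkn1a, was higher (2.12-fold) and 2 were lower, both counts near the shares of all genes.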
